A study of Mus musculus with 3 samples.

Results

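Ezrin, radixin and moesin, the ERM proteins, are described here at the level of their messages, together with merlin and 6 direct partners, in RNA recovered by immunoprecipitation (IP) from osteosarcoma cells. The 10 genes (Ezr, Rdx, Msn, Nf2, Slc9a3r1, Cd44, Slk, Stk10, Rock1 and Rock2) were taken by symbol from tables of 41743 gene symbols. All 10 had a row in every table and all 10 passed the filter on low counts. The cells were K7M2, an established mouse osteosarcoma line derived from bone. Their own ezrin gene had been knocked out with CRISPR/Cas9, and an ezrin cDNA with the T567A substitution had then been stably transfected. The labels name the resulting cells COL3A and state neither the promoter of the vector, nor the species of the cDNA, nor how many clones were kept. Every library shares this genotype, none was treated, and they differ only in the antibody: α-Ezrin gave 2 libraries and normal mouse IgG gave 1. The comparison asks which messages come down with T567A ezrin, with the IgG library as the background. These libraries do not show whether that ezrin was open or closed.

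ERM proteins fasten the plasma membrane to the actin cortex. An amino-terminal FERM domain holds membrane proteins and phosphoinositides and a carboxy-terminal tail holds actin, and in the closed form the tail covers the FERM domain. Phosphorylation of a conserved threonine in the tail, by kinases such as SLK, LOK (encoded by Stk10) and the ROCK kinases, keeps the proteins open, and alanine at that threonine cannot be phosphorylated. Merlin, encoded by Nf2, has a related FERM domain but lacks the carboxy-terminal actin site, and it is a tumour suppressor that restrains growth. The libraries hold RNA, so the values below are shares of messages in each library and not levels of the proteins. How much RNA each antibody recovered is not known here, so higher and lower mean a larger or smaller share of a library.

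The deposited counts summed to between 10124580 (IgG) and 19676595 (ezrin replicate 1), and the 10 genes together held between 0.167% and 0.197% of the counts of a library. The ezrin libraries were not copies of each other. Over 11547 genes their counts differed by 30.8 times the variance that counting noise alone would give (chi-square over its degrees of freedom). Of 8 markers of osteoblasts and osteosarcoma, Col1a1, Col1a2, Spp1 and Runx2 were well covered (Runx2 lowest, 35.8 to 61.0 CPM), whereas Sp7, Ibsp and Bglap had at most 1 count in any library. Alpl had 28 and 17 counts with the ezrin antibody and 33 with IgG, and was called lower (log2 fold −1.50, edgeR adjusted p = 0.0258). Runx2 was also lower (−0.73, edgeR adjusted p = 0.0104). Col1a2 (1.13, edgeR adjusted p = 2.53e-06) and Spp1 (1.14, edgeR adjusted p = 6.03e-05) were higher, and Col1a1 was not called (0.34, edgeR adjusted p = 0.230). The leukocyte markers Ptprc, Adgre1 and Cd3e had no count, although Csf1r, a macrophage marker, reached 870 to 1234 CPM. Here CPM is the count per 1e6 counts, scaled with TMM factors. These make libraries of different make-up comparable only if most genes do not differ between them, which was not tested here. No library of the input RNA was used here, so a message that is plentiful in the cells and one that the antibody recovers well cannot be told apart, nor can more cells and more RNA per cell.

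Among the ERM genes, the messages of ezrin and moesin were higher in both ezrin libraries than in IgG, and that of radixin was not. Ezr, the knocked-out and re-expressed gene (NCBI Gene 22350, chr17:6738131-6782780, GRCm38), had 7003 and 5879 counts in ezrin replicates 1 and 2 and 1479 in IgG, or 349.0, 350.5 and 154.6 CPM. Both ezrin libraries lay above IgG, and they lay closer together than for 98.1% of the 12478 genes tested. The 95% counting interval of the IgG value, 147 to 163 CPM (exact Clopper-Pearson, counting error only), did not reach them. Here and for the genes below, this interval leaves out variation between libraries, so a value outside it is not by itself a difference between antibodies. Ezr was 2.26-fold higher with the ezrin antibody (log2 fold 1.18, 95% interval 0.71 to 1.65, edgeR adjusted p = 1.30e-05). The tables count reads per symbol, so transcripts of the vector and of the edited locus are not separated, and with Ezr well covered in every library the counts do not test the knockout.

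Moesin's message showed the largest positive fold of the 10. Msn (NCBI Gene 17698, chrX:96096045-96168553) stood at 505.7 and 524.0 CPM in the ezrin libraries and at 187.3 CPM in IgG. Both ezrin values were clear of the IgG counting interval of 179 to 196 CPM. The difference was 2.75-fold (log2 fold 1.46, 95% interval 0.99 to 1.93, edgeR adjusted p = 3.22e-08), a fold above that of 95.7% of all genes tested.

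Radixin's message leaned the other way without passing the test. Rdx (NCBI Gene 19684, chr9:52047150-52088738) was at 102.8 and 128.5 CPM in ezrin replicates 1 and 2 and at 156.8 CPM in IgG. Both ezrin libraries lay below IgG, but the gap between them was nearly as wide as the gap from replicate 2 to IgG. The log2 fold was −0.44 with a 95% interval of −0.90 to 0.02 (edgeR adjusted p = 0.129), so a change of the size seen for Ezr or Msn in the upward direction lies outside the interval. It passed as lower when genes under a mean of 10 CPM were left out (log2 fold −0.55, edgeR adjusted p = 0.0351) and after cyclic loess, which removes the trend of the fold with expression level (−0.64, edgeR adjusted p = 0.0215).

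**Figure D1:**
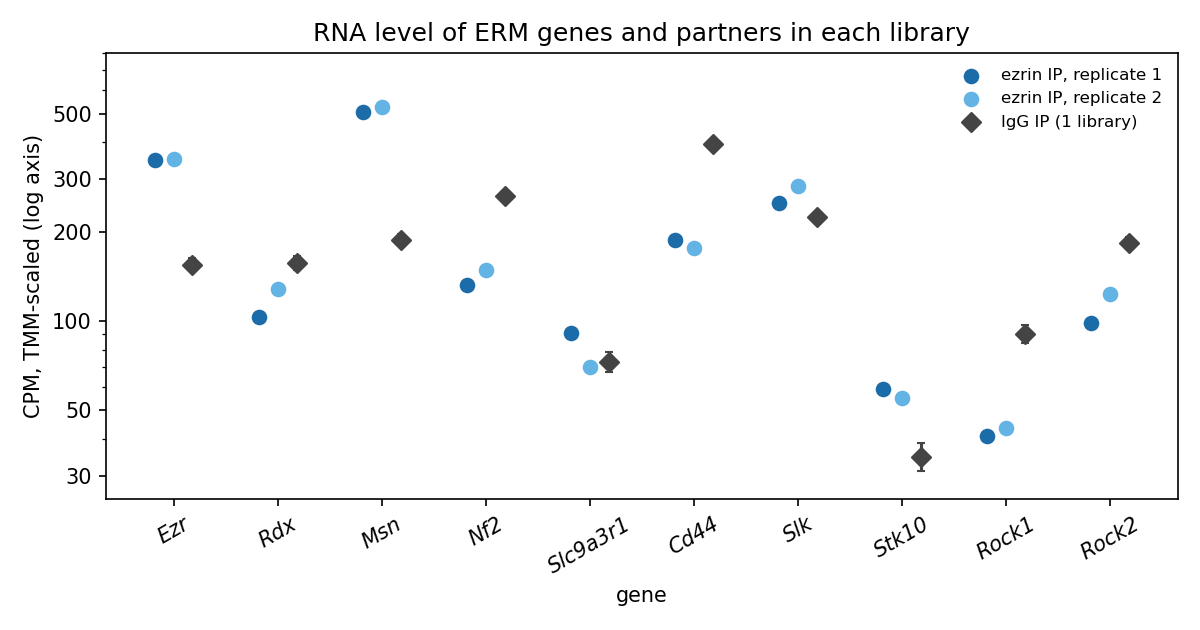
Level of each gene in each library, in TMM-scaled CPM on a log axis. Circles are the ezrin libraries, diamonds the IgG library with its 95% counting interval. Ezr, Msn, Stk10 and Slk (not called) lie above their IgG value in both ezrin libraries. Nf2, Cd44, Rock1, Rock2 and Rdx (not called) lie below it, and Slc9a3r1 on either side of it.

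Levels can be compared between genes only per length, for which the deposited RPKM (reads per kilobase of gene and per 1e6 reads) was used. The ERM messages were mixed in other proportions in the ezrin libraries than in IgG. Of the summed RPKM of the 3 genes, Ezr made up 51.1% and 49.2% in ezrin replicates 1 and 2 and 42.8% in IgG. Msn made up 38.5% and 38.3% against 27.0%. Rdx made up 10.5% and 12.5% against 30.2%, so that in IgG radixin's message was on a level with moesin's and in the ezrin libraries it was far below. The ratio of Ezr to Rdx in RPKM was 4.88 and 3.92 in the ezrin libraries and 1.42 in IgG, and that of Msn to Rdx was 3.68 and 3.05 against 0.893. The ratio of Ezr to Msn moved less, at 1.33 and 1.29 against 1.59. These ratios are taken within a library and do not depend on how libraries are scaled to each other, but the IgG side rests on a single library and the differences between genes were not tested. The 3 proteins are alike in sequence, and the sources used here do not say how reads matching more than one gene were counted.

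**Figure D2:**
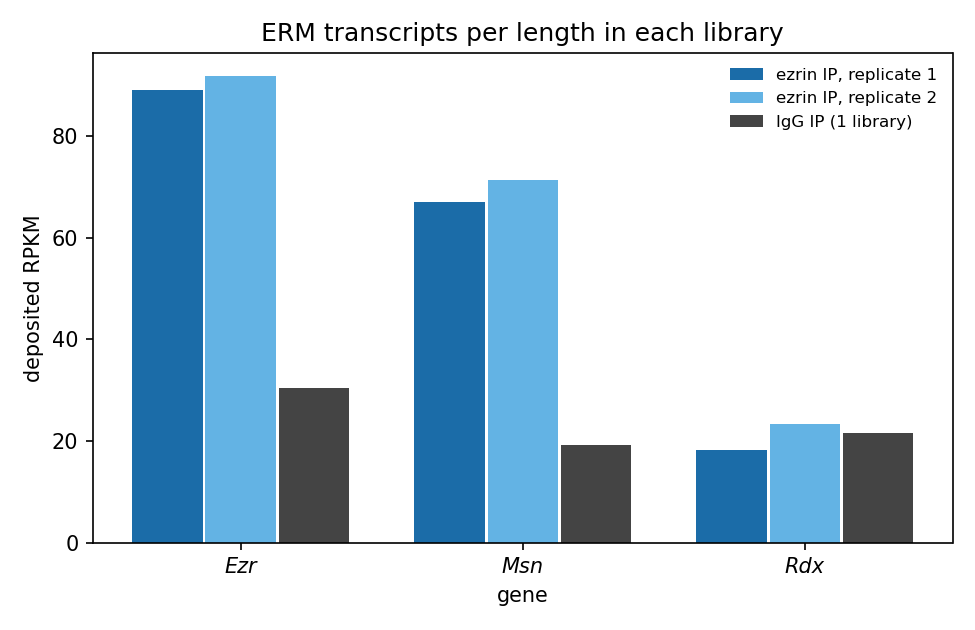
Deposited RPKM of the ERM genes in each library, as bars from 0. Ezr and Msn stand near 90.4 and 69.2 in the ezrin libraries against 30.5 and 19.2 in IgG, whereas Rdx lies at 18.2 and 23.4 on either side of its IgG value of 21.5. RPKM is not on a common scale across the antibodies, and in TMM-scaled CPM both ezrin values of Rdx lie below IgG.

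Ranked per length, the order of the 10 messages differed between the antibodies. In the ezrin libraries Ezr was first (90.4 ± 1.95 RPKM, SD, n = 2), followed by Msn (69.2 ± 3.03), Slc9a3r1 (35.5 ± 5.84) and Slk (27.2 ± 3.17). Next came Cd44 (22.8 ± 0.610), Rdx (20.8 ± 3.65) and Nf2 (17.5 ± 1.76), and the values of Rdx overlapped those of both its neighbours. Stk10 (9.33 ± 0.258), Rock2 (6.77 ± 1.19) and Rock1 (1.98 ± 0.132) closed the list. In IgG, Cd44 was first at 37.8 RPKM, then Ezr (30.5), Nf2 (25.2), Slc9a3r1 (24.5) and Rdx (21.5), and Msn fell to the sixth place (19.2), above Slk (17.4), Rock2 (8.57), Stk10 (4.35) and Rock1 (3.24). The lengths behind these values, recovered from the deposited counts and RPKM, run from 1.93 kb for Slc9a3r1 to 18.1 kb for Rock1. RPKM levels are not on a common scale across the antibodies, since 82.3% and 83.2% of the reads that the RPKM was divided by were in genes in the ezrin libraries and 68.7% in IgG.

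Merlin's message was lower with the ezrin antibody. Nf2 (NCBI Gene 18016, chr11:4757639-4849544) had 132.1 and 148.4 CPM in the ezrin libraries and 264.5 CPM in IgG. Both ezrin values lay far below the IgG counting interval of 254 to 275 CPM. The message was 1.89-fold lower (log2 fold −0.92, 95% interval −1.36 to −0.47, edgeR adjusted p = 4.04e-04). Ezrin's message, itself higher with the ezrin antibody, was 5.48 and 4.90 times merlin's per length in the ezrin libraries and 1.21 times in IgG. With limma on log2(RPKM + 1), where the pseudocount of 1 keeps low values finite and the median of all genes moved up by 0.24, Nf2 remained below IgG (−0.50) but missed the threshold (limma adjusted p = 0.0796).

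The scaffold gene did not pass the test, and its ezrin libraries fell on either side of IgG. Slc9a3r1, which encodes NHERF1 (also called EBP50), a PDZ scaffold that binds the FERM domain (NCBI Gene 26941, chr11:115163341-115181178), had 90.8 and 70.1 CPM against 72.7 CPM. Replicate 1 lay above the IgG counting interval of 67.4 to 78.3 CPM and replicate 2 inside it. The log2 fold was 0.15 (95% interval −0.33 to 0.62, edgeR adjusted p = 0.673).

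The adhesion receptor had the most negative fold of the 10. Cd44 encodes the hyaluronan receptor, whose cytoplasmic tail binds ERM proteins and merlin (NCBI Gene 12505, chr2:102811141-102901669). It stood at 187.9 and 176.2 CPM in the ezrin libraries and 394.6 CPM in IgG. The ezrin libraries lay close together and below the IgG counting interval of 382 to 407 CPM. Cd44 was 2.17-fold lower (log2 fold −1.12, 95% interval −1.55 to −0.68, edgeR adjusted p = 7.17e-06), a fold below which lay 10.8% of all genes tested. Counts per symbol do not separate its splice forms.

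Of the kinase genes, Stk10 was higher, Rock1 and Rock2 were lower and Slk was not called. Slk and Stk10 encode the STE20-family kinases SLK and LOK, which phosphorylate the conserved threonine of ERM proteins. Stk10 (NCBI Gene 20868, chr11:32533266-32624595) had 58.8 and 55.1 CPM against 34.8 CPM in IgG. Both ezrin values lay above the IgG counting interval of 31.2 to 38.7 CPM, and the message was 1.64-fold higher (log2 fold 0.71, 95% interval 0.20 to 1.22, edgeR adjusted p = 0.0212). This was the weakest of the calls. It just missed the threshold with DESeq2 (adjusted p = 0.0503), with upper quartile factors (edgeR adjusted p = 0.0504) and when genes under a mean of 10 CPM were left out (edgeR adjusted p = 0.0527).

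Slk (NCBI Gene 20874, chr19:47580019-47645246) was at 248.8 and 285.8 CPM against 223.9 CPM. Both ezrin values were above the IgG counting interval of 214 to 234 CPM by small margins. The log2 fold of 0.26 did not pass (95% interval −0.20 to 0.71, edgeR adjusted p = 0.404). It passed with limma on log2(RPKM + 1) (0.61, limma adjusted p = 0.0428) and turned to −0.08 after cyclic loess (edgeR adjusted p = 0.820). Per length, Slk's message was 2.63 and 3.22 times that of Stk10 in the ezrin libraries and 3.99 times in IgG.

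Both ROCK kinases, which act on myosin phosphatase and on ERM proteins, had lower messages with the ezrin antibody. Rock1 (NCBI Gene 19877, chr18:10064401-10182251) stood at 40.8 and 43.6 CPM against 90.4 CPM. The ezrin libraries were below the IgG counting interval of 84.5 to 96.6 CPM, and the message was 2.14-fold lower (log2 fold −1.10, 95% interval −1.57 to −0.63, edgeR adjusted p = 4.35e-05). Rock2 (NCBI Gene 19878, chr12:16894978-16988274) stood at 98.1 and 122.8 CPM against 183.4 CPM. Both lay below IgG, with replicate 2 the nearer, and the message was 1.66-fold lower (log2 fold −0.73, 95% interval −1.19 to −0.28, edgeR adjusted p = 0.00670). These are the longest of the 10 genes. With the trend of the fold on gene length removed, Rock1 stayed called (−0.80, edgeR adjusted p = 0.00255) and Rock2 did not (−0.51, edgeR adjusted p = 0.0570). On log2(RPKM + 1) Rock1 (−0.51, limma adjusted p = 0.0730) and Rock2 (−0.31, limma adjusted p = 0.315) were below IgG without passing. Rock2's message was 3.13 and 3.66 times Rock1's per length in the ezrin libraries and 2.64 times in IgG.

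**Figure D3:**
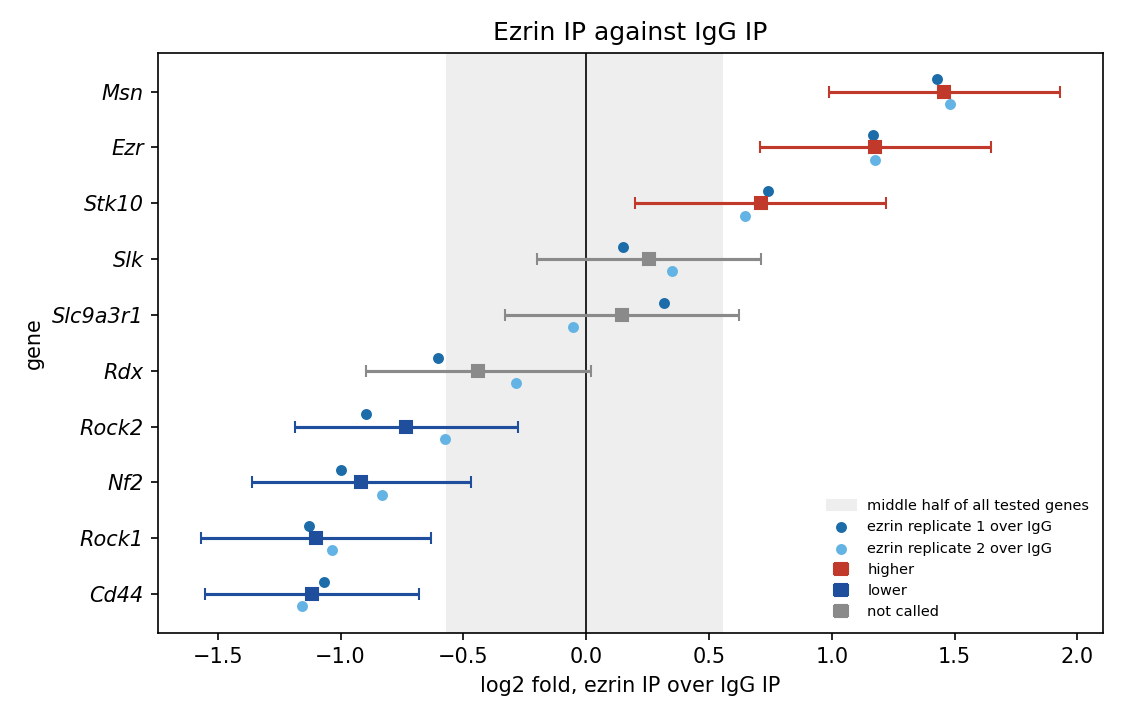
Log2 fold of each gene, ezrin IP over IgG IP, with its 95% interval (squares; red higher, blue lower, grey not called) and the log2 ratio of each ezrin library to IgG (circles, 1 CPM added to both sides). The shaded band runs from −0.57 to 0.55 and spans the middle of all tested genes from the lower to the upper quartile; 3 genes lie above it and 4 below it.

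As a set, 3 of the 10 genes were higher (Msn, Ezr and Stk10), 4 lower (Cd44, Rock1, Nf2 and Rock2) and 3 not called. Of all genes tested, 19.0% were higher, 17.4% lower and 36.4% called in either direction by the same test at an adjusted p of 0.05, so calls in both directions are common in these libraries. By position alone, 4 of the 10 had both ezrin libraries above IgG and 5 had both below, against 42.6% and 44.3% of all genes. The median log2 fold of the 10 was −0.15, beside −0.02 for all genes, and it turned to 0.23 with log2(RPKM + 1), where the median of all genes was 0.22. Across all genes there were 2377 higher and 2171 lower calls with TMM, and 2872 and 1761 when scaled by library size alone, which raised the median of all genes by 0.12. Limma on log2(RPKM + 1), which changes the test, the unit and the scaling at once, gave 3734 and 964. Under library size alone the same 3 genes of the set were higher and the same 4 lower. Relative to all genes, Ezr lay above the fold of 91.8% of them, Stk10 above 80.4%, Slk above 62.6%, Slc9a3r1 above 57.8%, Rdx above 30.1%, Rock2 above 19.7%, Nf2 above 14.8% and Rock1 above 11.0%.

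Most of the 10 messages were abundant and many were long. By mean CPM, 8 of the 10 were among the 25% most abundant of the tested genes (from 73.3 CPM), where the median log2 fold was 0.25. Stk10 and Rock1 were in the next 25%, where it was 0.06. By length, Nf2, Cd44, Slk, Rock1 and Rock2 were among the longest 25% (from 6.74 kb). Of those long genes 23.2% were lower and 15.7% higher, and their median log2 fold was −0.15. Rdx, Msn and Stk10 lay in the next longest 25%, with a median of 0.00, and Ezr in the one after it, with a median of 0.06. With the length trend removed the folds of the 10 ran from −1.10 for Cd44 to 1.46 for Msn, and Rock2 was the only one of them to change its call. With the trend on level removed by cyclic loess they ran from −1.44 for Cd44 to 1.04 for Msn.

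**Figure D4:**
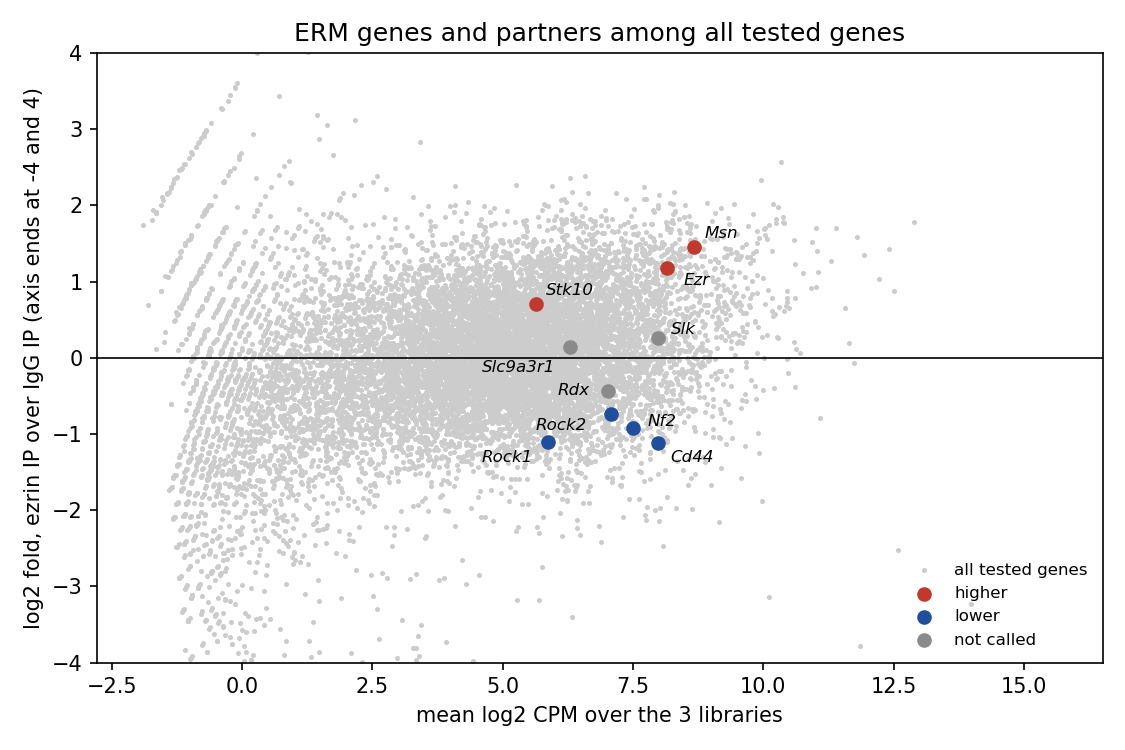
Log2 fold against mean log2 CPM for the 12478 tested genes (grey) and the 10 genes (red higher, blue lower, grey circles not called). The vertical axis ends at 4 on each side and leaves out 195 genes beyond it. Ezr and Msn sit in the upper part of the cloud at their level, and Cd44, Nf2 and Rock1 in its lower part.

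Other genes matched the pattern of Ezr over the 3 libraries closely. By Euclidean distance in log2(CPM + 1), the nearest of 8603 other genes at or above a mean of 10 CPM were Ncapd2 (distance 0.0608), Cct4 (0.0760), Ap2b1 (0.0951), Impdh2 (0.108) and Supt6 (0.109). Ncapd2, a condensin subunit gene, had 362.4, 343.9 and 154.6 CPM in ezrin replicates 1 and 2 and IgG, and the log2 folds of the 5 ran from 1.14 to 1.30. Nearness over 3 libraries says only that level and fold were alike.

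Genes around the ERM proteins and merlin were taken from 3 lists of 56 genes, of which 50 were tested. Of the 50, 9 were higher and 13 lower, beside the 19.0% and 17.4% of all genes, and the median log2 folds of the lists lay between −0.07 and 0.08. On log2(RPKM + 1), 16 of the 50 were higher and 1 lower, beside 3734 and 964 of all 12478 genes in that setting. Of the lower calls named below, that of Pip5k1c alone was kept there.

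Among genes that control the phosphorylation and opening of ERM proteins, 4 of 14 were called, beside 36.4% of all genes. Of these, 1 was higher and 3 were lower. The list had a median of −0.07 that was 0.02 with no filter, 0.05 with library size alone and 0.30 on log2(RPKM + 1). Rhob, a small GTPase gene, was at 172.5 and 160.4 CPM against 102.3 CPM in IgG (log2 fold 0.70, SE 0.24, edgeR adjusted p = 0.0149), and it missed the threshold after cyclic loess (0.48, edgeR adjusted p = 0.118). Rhoa, the GTPase that activates the ROCK kinases, was at 322.9 and 342.9 CPM and at 340.6 CPM in IgG, with no call (−0.03, edgeR adjusted p = 0.924). Pip5k1c, an enzyme that makes the phosphoinositide which ERM proteins bind, was at 99.8 and 77.7 CPM against 197.7 CPM (log2 fold −1.16, edgeR adjusted p = 7.23e-06). Both ezrin libraries were far below IgG. Ppp1cb, the catalytic subunit of myosin phosphatase, was at 258.2 and 366.8 CPM against 609.7 CPM, lower in both though the ezrin libraries were apart (log2 fold −0.96, edgeR adjusted p = 7.40e-05). The list's other phosphatase genes, Ppp1ca (−0.23, edgeR adjusted p = 0.413), Ppp1cc (0.04, edgeR adjusted p = 0.904) and Ppp1r12a (−0.28, edgeR adjusted p = 0.364), were not called. Arhgdia, which encodes a GDP dissociation inhibitor of such GTPases and was the most abundant of the list, was at 886.2 and 716.3 CPM against 1167 CPM (log2 fold −0.54, edgeR adjusted p = 0.0293), and missed the threshold with DESeq2 (adjusted p = 0.0731) and with library size alone (edgeR adjusted p = 0.0961).

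Other binding partners of ERM proteins included genes called in each direction. Of 20 tested, 3 were higher and 5 lower, beside 19.0% and 17.4% of all genes. The list had a median of −0.07 that was 0.05 with library size alone and 0.24 on log2(RPKM + 1). The higher ones were Actg1 (log2 fold 0.91, edgeR adjusted p = 1.64e-04), which encodes cytoplasmic γ-actin, Prkar1a (0.78, edgeR adjusted p = 0.00326), a regulatory subunit of protein kinase A, and Palld (0.77, edgeR adjusted p = 0.00753), an actin-bundling protein. Actg1 was at 2437 and 2114 CPM against 1208 CPM, and Actb, the most abundant, at 3597 and 3107 CPM against 2931 CPM. The 2 genes encode near-identical proteins, and how reads that match both would have been assigned was not examined here. Actb was not called (0.19, edgeR adjusted p = 0.466) and turned to −0.72 after cyclic loess (edgeR adjusted p = 0.00107), while Actg1 (0.14, edgeR adjusted p = 0.647) and Prkar1a (0.33, edgeR adjusted p = 0.258) then missed the threshold. Genes called lower included Podxl, the sialomucin podocalyxin, and Pik3r1, a regulatory subunit of PI3-kinase. Pik3r1 was at 52.2 and 68.4 CPM against 102.7 CPM (−0.77, edgeR adjusted p = 0.00510). Podxl was rare, at 7.18 and 7.21 CPM against 12.9 CPM (−0.84, edgeR adjusted p = 0.0243), and did not pass with DESeq2 (adjusted p = 0.237). Of the adhesion molecules on the list, Vcam1 was well covered, at 213.8 and 252.4 CPM against 174.5 CPM, and its log2 fold of 0.42 did not pass (edgeR adjusted p = 0.157). Icam1 had only 82 and 43 counts with the ezrin antibody and 23 with IgG, and Icam2 had none.

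Of 16 tested genes that bind or control merlin, 5 were higher and 5 lower, beside 19.0% and 17.4% of all genes. Whether this list differs from other genes was not tested. The list had a median of 0.08 that was −0.17 after cyclic loess and −0.02 with upper quartile factors. Ddb1, the adaptor of CUL4 ubiquitin ligases, was at 2604 and 2750 CPM against 818.5 CPM, the largest positive fold of these lists (log2 1.71 with an SE of 0.22, edgeR adjusted p = 1.35e-12). Dcaf1, the substrate receptor of such a ligase that merlin binds, was at 68.5 and 83.1 CPM against 40.1 CPM (0.92, edgeR adjusted p = 0.00204). Both were above IgG in each ezrin library, while Cul4a, the ligase's own scaffold, was not called (0.19, edgeR adjusted p = 0.547). Among genes of the Hippo pathway, through which merlin restrains growth, the kinase gene Stk3 was higher, at 45.3 and 58.6 CPM against 26.5 CPM (0.97, edgeR adjusted p = 0.00155). The kinase gene Lats1 was lower, at 53.4 and 58.6 CPM against 108.7 CPM (−0.96, edgeR adjusted p = 3.44e-04). The adaptor gene Sav1 was lower as well, at 52.6 and 60.5 CPM against 107.5 CPM (−0.93, edgeR adjusted p = 5.41e-04). Lats1 and Sav1 did not pass on log2(RPKM + 1) (limma adjusted p = 0.0917 and 0.0942). Amot, an angiomotin that binds merlin, rested on 85 and 69 counts with the ezrin antibody and 78 with IgG, and its call (−0.96, edgeR adjusted p = 0.0291) was lost with DESeq2 (adjusted p = 0.278). The better covered angiomotin genes were called in opposite directions. Amotl1 was lower (−0.87, edgeR adjusted p = 5.98e-04) and Amotl2 higher (0.55, edgeR adjusted p = 0.0345).

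**Figure D5:**
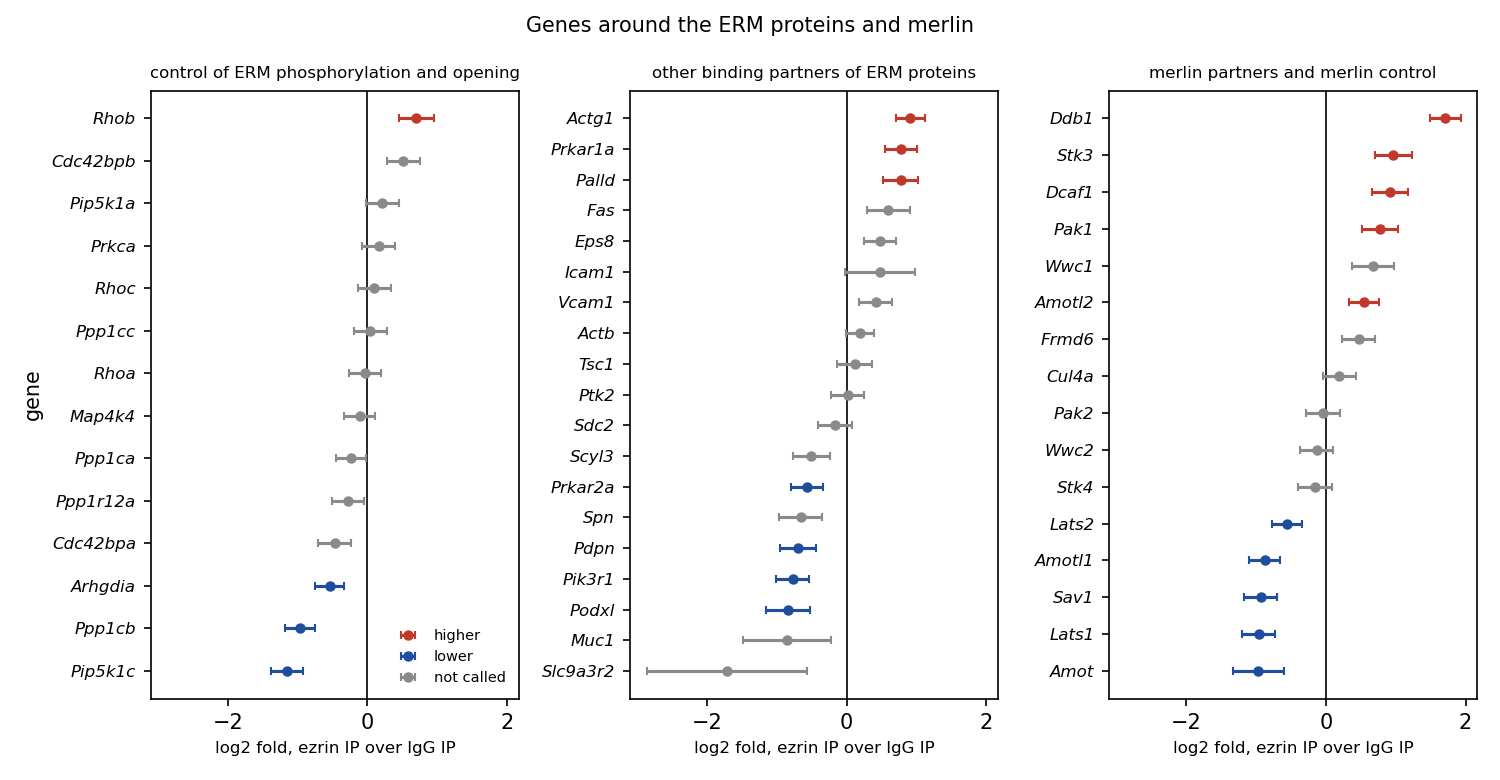
Log2 fold with its SE for 49 of the 50 tested genes of the 3 lists (red higher, blue lower, grey not called), each list ordered by fold. Ddb1 has the largest positive fold (1.71) and Pip5k1c the most negative fold of a called gene (−1.16).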

How the data were processed

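Per the labels' protocols, RNA was recovered with a commercial RIP kit and depleted of ribosomal RNA, although the labels also name polyA RNA. The authors deposited 1 table of raw counts and 1 of RPKM per library, both by gene symbol. The build was GRCm38, per the submitters' processing notes; the sources used here do not name an aligner, counter or strand setting. Gene positions come from RefSeq GRCm38.p6, which matched 30216 symbols.

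Counts were tested with edgeR 4.0.16 in R 4.3.3 (quasi-likelihood, TMM, filterByExpr) over 12478 genes, with Benjamini-Hochberg adjustment over all of them. The fit has 1 residual degree of freedom, and prior degrees of freedom were infinite, so each gene was given the spread pooled over genes and IgG was assumed to share it. That spread comes from the ezrin libraries alone, and the p-values measure no spread of the IgG library. The labels do not say whether separate cultures were used. SE is the fold's size over the square root of F, and 95% intervals derive from it. On simulated counts for this comparison (12478 genes), 63.6% of those raised 2-fold and 54.0% of those lowered 2-fold were called. Only a small share of genes, none with low counts, was changed there, whereas 36.4% were called in the data. The adjusted threshold was therefore stricter in the simulation, and these shares do not give the rate of detection here. Gene length was recovered from count over RPKM. DESeq2 1.42.0 and limma 3.58.1 served as alternatives.

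The 10 genes and the 3 lists were chosen with earlier results of these data known. Named list genes are the 3 highest and 3 lowest called and the most abundant of each list. Rhoa, Cul4a, Vcam1, Icam1, Icam2, Ppp1ca, Ppp1cc, Ppp1r12a, Amotl1 and Amotl2 were added after their values were seen. Some genes that the rule takes are left out of the text and plots.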

Additional observations from a re-analysis of the deposited data

How the results depend on the processing

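The IgG library has no replicate, so no test covers its own variation, and 1-against-1 ratios have no test. No paired analysis was possible because the groups share only replicate number 1. Without either ezrin library in turn, the log2 fold ran from 1.17 to 1.21 for Ezr, from 1.43 to 1.52 for Msn, from −1.15 to −1.02 for Rock1, from −0.61 to −0.25 for Rdx, from 0.15 to 0.39 for Slk, from −0.90 to −0.55 for Rock2 and from −0.02 to 0.32 for Slc9a3r1. Of the 10, only Slc9a3r1 changed its sign in these 2 settings.

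Across 13 other settings, Ezr, Msn and Cd44 stayed called in 12 each, Nf2 and Rock1 in 10, Stk10 and Rock2 in 9. With limma on log2(RPKM + 1) and no filter, no gene was called: 0 higher and 0 lower among all genes, in the set and in the lists. At an unadjusted p under 0.05 it gave 3795 and 2388 genes, and 3 and 1 of the set, and the smallest adjusted p was 0.0730. In that setting the folds were Ezr 1.54, Msn 1.80, Nf2 −0.50, Cd44 −0.70, Stk10 0.95, Rock1 −0.51 and Rock2 −0.31. With the filter, log2(RPKM + 1) and log2(RPKM + 0.1) called 3734 and 3745 genes higher and 964 and 843 lower, and 1 gene of the set lower in each. Nf2 fell short there at −0.50 and −0.53, Rock1 at −0.51 and −0.68, and Rock2 at −0.31 and −0.35, while Slk passed at 0.61 and 0.64. These settings called 16 and 15 list genes higher and 1 and 2 lower. Their medians over all genes were 0.24 and 0.36 above that of the counts. DESeq2 called 1101 genes lower. It called 7 list genes lower, as did library size alone and no filter on low counts. Cyclic loess called 5 list genes higher, and turned Slk to −0.081 and Actb to −0.72. Rdx passed at a mean of at least 10 CPM (−0.55) and after cyclic loess (−0.64). Stk10 fell short at a mean of at least 10 CPM (0.60), with upper quartile factors (0.61) and with DESeq2 (0.72), and Rock2 with the length trend removed (−0.51). The cause of these changes was not tested. Shares within the ERM genes depend on length: from raw counts Ezr held 35.7% in the ezrin libraries and 31.0% in IgG, Msn 52.5% and 37.6%, and Rdx 31.4% in IgG.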
